A study of Mus musculus with 6 samples.

Results

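The 6 genes described here are grouped under the name of partners of GATA1 in the Tal1 complex: Tal1, Lyl1, Lmo2, Ldb1, Zfpm1 and Cbfa2t3. They were chosen by name, and each matched 1 of the 19436 gene rows read from the deposited table. RNA was measured in cells sorted as CD71-medium, Ter119-negative erythroid precursors (a sort gate called R1) from C57BL/6 mouse fetal liver at day E14.5. There were 3 wild type and 3 -77-/- libraries. An enhancer named -77 lies upstream of Gata2, and -77-/- denotes its loss from both alleles; no other allele or agent was given for either genotype. Whether the libraries stem from separate embryos was not stated, and the p-values below therefore cover only the spread between these samples, which may be technical. Values of single libraries are given in the order of replicates 1, 2 and 3 of each genotype.

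Tal1 is a basic helix-loop-helix transcription factor that pairs with an E protein and binds DNA at E-box sequences. In red cell precursors this pair is joined to GATA1 through Lmo2, a LIM-domain bridging protein without DNA contacts of its own, and Ldb1, which binds Lmo2, self-associates and brings enhancers and promoters together. Zfpm1 (FOG1) binds the amino-terminal zinc finger of GATA factors and recruits chromatin-modifying complexes, Cbfa2t3 (ETO2) is a corepressor carried by the Tal1 complex, and Lyl1 is the paralog of Tal1 with overlapping functions in blood cells. The complex switches on genes of red cell maturation and is also formed, with GATA2 in place of GATA1, in earlier progenitors.

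The 4 stretches below are the 250 bases upstream of RefSeq starts of 4 members in GRCm38.p6. They are shown because members that fell and 1 that did not pass the test can be read side by side for the motif that GATA factors bind. They take in every member window that held the motif, and 1 of those without it. Capitals mark matches, on either strand, to AGATAA and AGATAG and to TGATAA and TGATAG, and each stretch is written 5′ to 3′ on the strand of its gene.
Tal1, chr4:115056176-115056425, plus strand: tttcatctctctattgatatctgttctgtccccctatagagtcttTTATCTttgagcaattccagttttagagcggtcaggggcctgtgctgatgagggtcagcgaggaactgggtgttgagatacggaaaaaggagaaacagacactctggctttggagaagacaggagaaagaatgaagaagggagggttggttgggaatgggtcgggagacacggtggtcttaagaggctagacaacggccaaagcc
Zfpm1, chr8:122281891-122282140, plus strand: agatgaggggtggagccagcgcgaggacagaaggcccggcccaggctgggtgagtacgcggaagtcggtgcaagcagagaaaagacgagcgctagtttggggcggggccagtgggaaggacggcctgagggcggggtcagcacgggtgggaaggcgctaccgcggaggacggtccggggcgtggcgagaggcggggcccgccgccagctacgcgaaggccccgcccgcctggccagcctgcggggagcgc
Ldb1, internal start, chr19:46037071-46037320, minus strand: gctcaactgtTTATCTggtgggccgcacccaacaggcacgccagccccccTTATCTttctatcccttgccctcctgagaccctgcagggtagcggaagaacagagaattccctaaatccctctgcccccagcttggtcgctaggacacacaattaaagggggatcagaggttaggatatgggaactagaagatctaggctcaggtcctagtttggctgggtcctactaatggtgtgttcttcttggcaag
Cbfa2t3, chr8:122699110-122699359, minus strand: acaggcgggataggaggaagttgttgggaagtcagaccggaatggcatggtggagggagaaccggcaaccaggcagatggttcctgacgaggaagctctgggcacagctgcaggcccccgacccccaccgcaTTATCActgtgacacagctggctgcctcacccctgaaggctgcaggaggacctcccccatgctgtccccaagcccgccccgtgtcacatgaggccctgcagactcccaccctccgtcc
Of the windows shown, that of Tal1 held 1 match, that of the internal Ldb1 start held 2, that of Cbfa2t3 held 1 and that of Zfpm1 held none. None of the 4 stretches overlapped an annotated exon of its own gene; the Ldb1 stretch lay in the transcribed span of the gene, in an intron, and the other 3 lay outside it. The table held 9 windows for the members, none of them for Lmo2, and the motif was present in 3 of the 9, all shown above. The windows of Lyl1 and of the other starts of Tal1, Cbfa2t3 and Ldb1, the outermost Ldb1 start among them, held none. The same letters were present in 26.5% of all 32851 windows in the table. An E-box, CANNTG, was present in 66.2% of windows and in those of Lyl1, Ldb1 (the internal start shown) and both starts of Cbfa2t3. The E-box-GATA composite motif, searched on both strands, was present in 2.29% of windows and, among the members, in that of Cbfa2t3 alone; it takes in the GATA match shown there.

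In the -77-/- libraries of this sort gate the RNAs of Zfpm1, Tal1, Ldb1 and Lmo2 fell, by decreasing extent in that order, whereas Lyl1 and Cbfa2t3 did not pass the test. Of the 6 members 4 were lower and none was higher (limma on log2(value + 1), Benjamini-Hochberg adjusted p under 0.05 over all 15821 genes tested), and all 6 passed the filter on low values. Among all tested genes 32.2% were called by the same rule, 15.2% lower and 16.9% higher, and 6.11% were lower by at least 2-fold. At an unadjusted p under 0.05 the counts of members were again 4 lower and none higher, and edgeR, DESeq2, limma-voom and the authors' deposited table each gave the same 4 and 0. The median log2 fold change of the 6 members was -1.32, and that of all tested genes 0.10.

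Tal1 (ENSMUSG00000028717), the DNA-binding core of the complex, had normalized read counts of 3751, 4040.1 and 4075 in wild type and of 678, 354 and 542 in -77-/-. Its mean went from 3955 ± 178 to 525 ± 163 (SD, n = 3 libraries here and below), 7.54-fold lower, with no overlap. On the log2(value + 1) scale it fell by 2.96 (SE 0.20, 95% interval -3.39 to -2.53, limma adjusted p = 1.65e-07). Only 2.33% of tested genes had a lower log2 fold change. The wild type libraries lay within 1.09-fold of each other, while the -77-/- libraries spread 1.92-fold between the lowest and the highest.

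Zfpm1 (ENSMUSG00000049577), the GATA cofactor, had the largest fall of the 6. The wild type libraries held 1586, 1536 and 1631 normalized reads and the -77-/- libraries 128, 124 and 76.0. The mean went from 1584 ± 47.6 to 109.5 ± 29.1, which is 0.0691 of the wild type level (log2 fold change -3.88, SE 0.24, limma adjusted p = 1.40e-08). Every -77-/- library lay below every wild type library, and 1.24% of tested genes had a lower log2 fold change. This rested on 4660 recovered reads over the wild type libraries and 343 over the -77-/- libraries, the lowest -77-/- total of any member.

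Ldb1 (ENSMUSG00000025223), the self-associating adaptor, was at 3074, 3185 and 2884 normalized reads in wild type and at 1133, 889 and 964 in -77-/-. It was 3.06-fold lower (3048 ± 152 against 995 ± 125; log2 fold change -1.62, SE 0.13, limma adjusted p = 2.28e-07), without overlap. Lmo2 (ENSMUSG00000032698), the bridge between Ldb1 and the DNA-binding factors, had 4419.8, 5877 and 5959 in wild type and 3511, 2164 and 2403 in -77-/-. It was 2.01-fold lower (5419 ± 866 against 2693 ± 719; log2 fold change -1.03, SE 0.18, limma adjusted p = 0.0016). The Lmo2 groups did not overlap, but the gap between the lowest wild type and the highest -77-/- library was small beside that of Tal1. Groups without overlap and with -77-/- below were found in 21.4% of tested genes, and groups without overlap in either direction in 46.5%.

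Lyl1 (ENSMUSG00000034041) was at 381, 310.3 and 512 normalized reads in wild type and at 564, 397 and 530.2 in -77-/-. The groups overlapped, at means of 401 ± 102 and 497 ± 88.6 (log2 fold change 0.32, SE 0.24, 95% interval -0.19 to 0.83, limma adjusted p = 0.327). The interval leaves room for a rise of the size of its upper bound. Cbfa2t3 (ENSMUSG00000006362), the corepressor, had 1216, 1388 and 1103 in wild type and 1237, 940.1 and 1239 in -77-/-. Its means of 1236 ± 143 and 1139 ± 172 overlapped as well (log2 fold change -0.12, SE 0.16, 95% interval -0.46 to 0.21, limma adjusted p = 0.582). For Lyl1 and Cbfa2t3 another annotated gene overlaps the locus, Nfix and the non-coding Gm10612 respectively, and as the strand setting of the counting was not given, reads of overlapping genes cannot be told apart. Non-coding genes that overlap Tal1, Lmo2 and Zfpm1 in the annotation were not analysed here. Nfix did not pass the test (620 ± 94.0 and 483 ± 31.5, limma adjusted p = 0.191), and Gm10612 had 1 read in wild type against 70 in -77-/-.

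**Figure D1:**
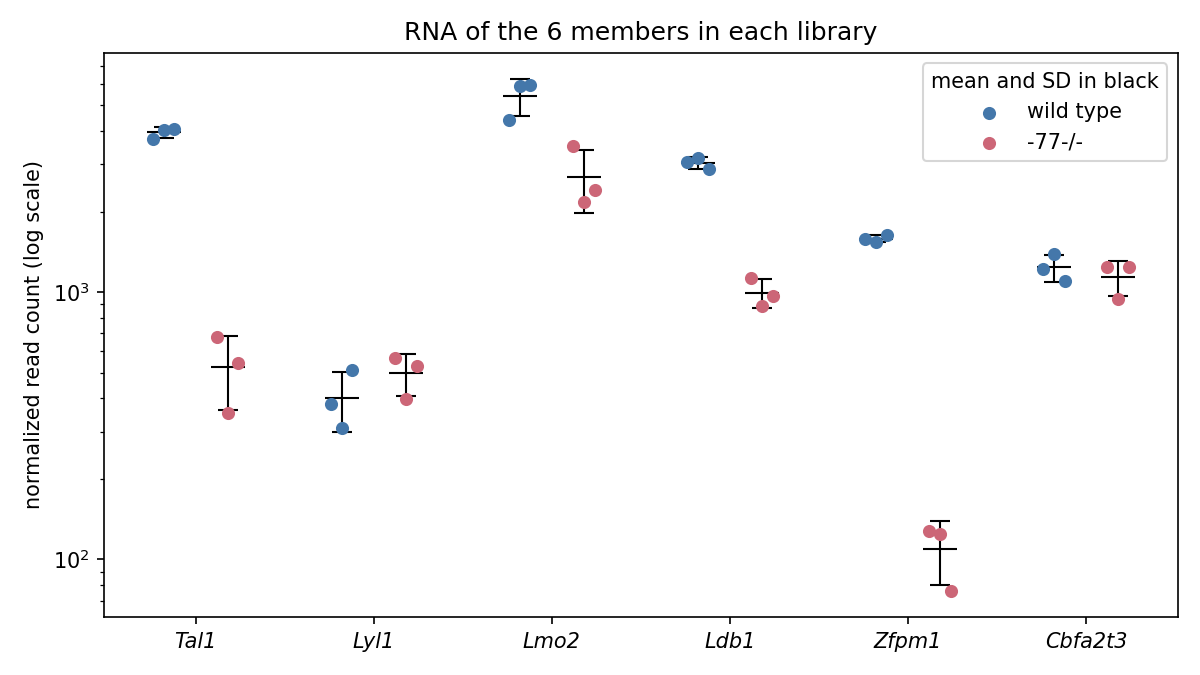
Normalized read counts of the 6 members (log axis) in each of the 3 wild type (blue) and 3 -77-/- (red) libraries, drawn left to right as replicates 1 to 3, with the mean and SD in black. Tal1, Lmo2, Ldb1 and Zfpm1 show no overlap between genotypes; Lyl1 and Cbfa2t3 overlap.

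Within the -77-/- group, replicate 1 was the highest library for Tal1, Lyl1, Lmo2, Ldb1 and Zfpm1, and replicate 2 was the lowest for Tal1, Lyl1, Lmo2, Ldb1 and Cbfa2t3. The same 2 libraries marked the ends of the sum of 12 defining erythroid genes, Tfrc and Klf1 among them. It was 6808, 3016 and 4362 normalized reads in -77-/-. In wild type that sum was 36794 to 40473. Not every gene of this list kept that order, as Epb4.2 was at 21.4, 57.4 and 13.7 in -77-/-. All 12 of these genes fell, with a median log2 fold change of -4.62, against -3.88 for Zfpm1. Over 12 monocyte and macrophage genes, all of them higher, the sum was 1900 to 3458 in wild type and 35822, 46599.9 and 38335 in -77-/-. The sum of 11 lymphoid genes was 730.5 to 949 in wild type and 3746, 2025 and 2263 in -77-/-. Its ends thus lay in the same 2 libraries as those of the erythroid sum. Of 12 granulocyte genes 4 were lower and 5 higher, beside 15.2% and 16.9% of all tested genes, with a median log2 fold change of -0.24. Their sum was 14505 to 25242 in wild type and 46299.9 to 50090.5 in -77-/-. Without the most abundant of them, Mpo (myeloperoxidase), the sums overlapped, at 5976 to 10493 and 9267 to 9334, while the erythroid, monocyte and lymphoid sums without their own most abundant gene did not. None of these markers was at 0 in all 6 libraries. The part of these other cell types in the change of the members was not tested, and in these bulk samples fewer cells with the complex and less of its RNA per cell cannot be told apart. The libraries held 16516338 to 20468899 recovered reads. Xist, the X-inactivation RNA of female cells, was at 41877 normalized reads in wild type replicate 2 and at no more than 63.2 elsewhere, and the 4 members remained lower when that library, or any other single library, was left out.

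Levels can be compared between genes only per length, and were divided by the length of the union of exons of each gene in GENCODE M21 (GRCm38), which need not be the transcripts present in these cells. In wild type the order was Lmo2, with 2862 ± 457 normalized reads per kilobase, then Tal1 with 923 ± 41.5, Ldb1 with 707 ± 35.3, Zfpm1 with 467 ± 14.0, Lyl1 with 223 ± 56.8 and Cbfa2t3 with 155 ± 18.0. Each of the first 4 was separated from its neighbours by more than the spread of the libraries, whereas Lyl1 and Cbfa2t3 overlapped. In -77-/- the order was Lmo2 with 1422 ± 380, Lyl1 with 276 ± 49.2, Ldb1 with 231 ± 29.0, Cbfa2t3 with 143 ± 21.6, Tal1 with 122 ± 38.0 and Zfpm1 with 32.3 ± 8.58. There the pairs of Lyl1 and Ldb1 and of Cbfa2t3 and Tal1 overlapped, and Lmo2 at the top and Zfpm1 at the bottom stood apart. By their means Tal1 stood in the second place in wild type and in the fifth in -77-/-, and Lyl1 in the fifth and in the second. Gata1 itself stood at 1583 ± 159 reads per kilobase in wild type, between Lmo2 and Tal1, and at 128 ± 118 in -77-/-.

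**Figure D2:**
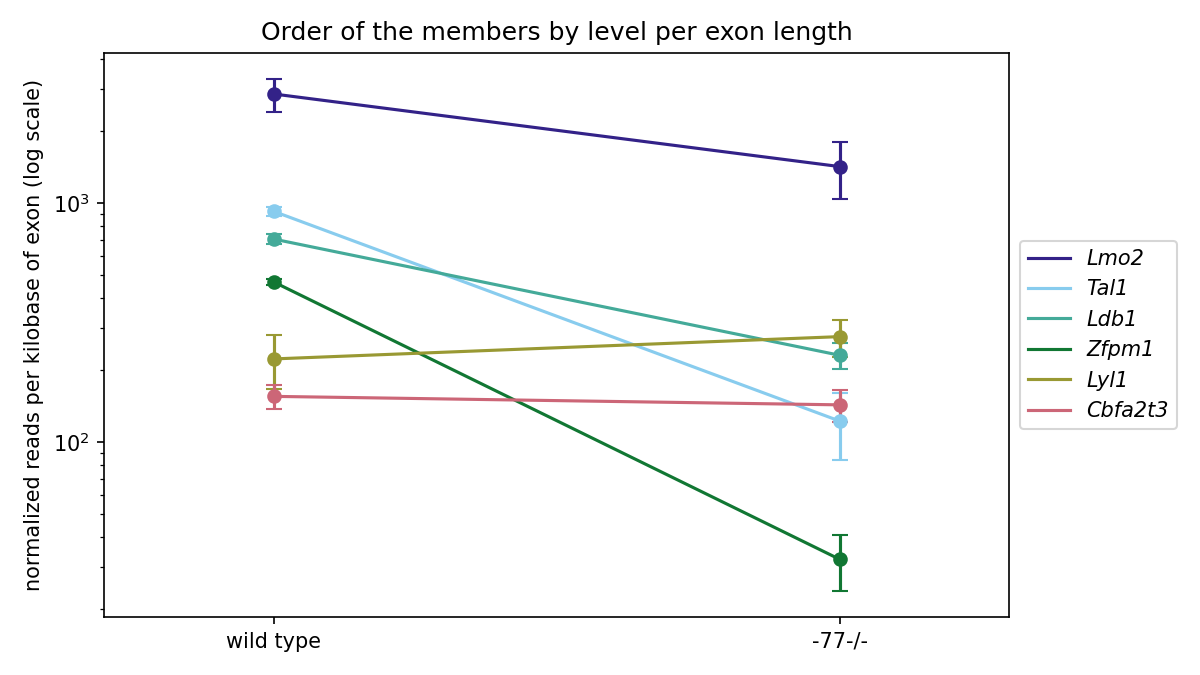
Mean normalized reads per kilobase of exon (log axis) of the 6 members in wild type and -77-/-, with SD over 3 libraries as bars. The lines of Tal1 and Zfpm1 cross those of Lyl1 and Cbfa2t3, and the line of Ldb1 crosses those of Lyl1 and Tal1. Lmo2 stays on top in both genotypes.

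Ratios between members within a library do not depend, apart from the added pseudocount of 1, on how libraries were scaled. Each difference in a log2 ratio equals the difference between the log2 fold changes of its genes. The ratios are therefore no separate evidence, and most pairs share Tal1 as denominator. The ratio of Lyl1 to Tal1 in normalized reads, not per length, stood at 0.102, 0.0770 and 0.126 in wild type and at 0.832, 1.12 and 0.978 in -77-/-. The log2 ratio was higher by 3.28, a 9.74-fold change, without overlap. Per kilobase of exon, the ratio of Lyl1 to its paralog was 0.241 ± 0.0580 in wild type and 2.33 ± 0.344 in -77-/-. The log2 ratios of Cbfa2t3, Lmo2 and Ldb1 to Tal1 were higher in -77-/- by 2.84, 1.93 and 1.34. Tcf3, the gene of the E proteins E12 and E47 that pair with Tal1, was higher relative to Tal1 by 1.87. Ldb1 relative to Lmo2 was lower by 0.59 on the log2 scale (difference -0.59), also without overlap. The exact two-sided permutation p was 0.10 for each of these 6 pairs, the smallest that 3 against 3 libraries allow, and 0.117 adjusted over the 7 pairs compared, so none could pass a threshold of 0.05.

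The seventh pair, Zfpm1 relative to Gata1, overlapped between genotypes. The ratio was 0.565, 0.535 and 0.486 in wild type and 0.257, 1.29 and 0.577 in -77-/-, a log2 difference of 0.13 (exact permutation p = 0.70). Gata1 fell 12.4-fold, from 3012 ± 302 to 244 ± 225 (log2 fold change -4.01, limma adjusted p = 0.0125), and its -77-/- libraries were at 502, 96.2 and 132. Among the -77-/- libraries Gata1 was highest in replicate 1 and lowest in replicate 2, while Zfpm1 was at 128 and 124 there. As Gata1 is the denominator, the ratio was for that reason lowest in replicate 1 and highest in replicate 2. With -77-/- replicate 3 left out, Gata1 no longer passed (limma adjusted p of 0.0585, the highest of a range that began at 6.57e-08).

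**Figure D3:**
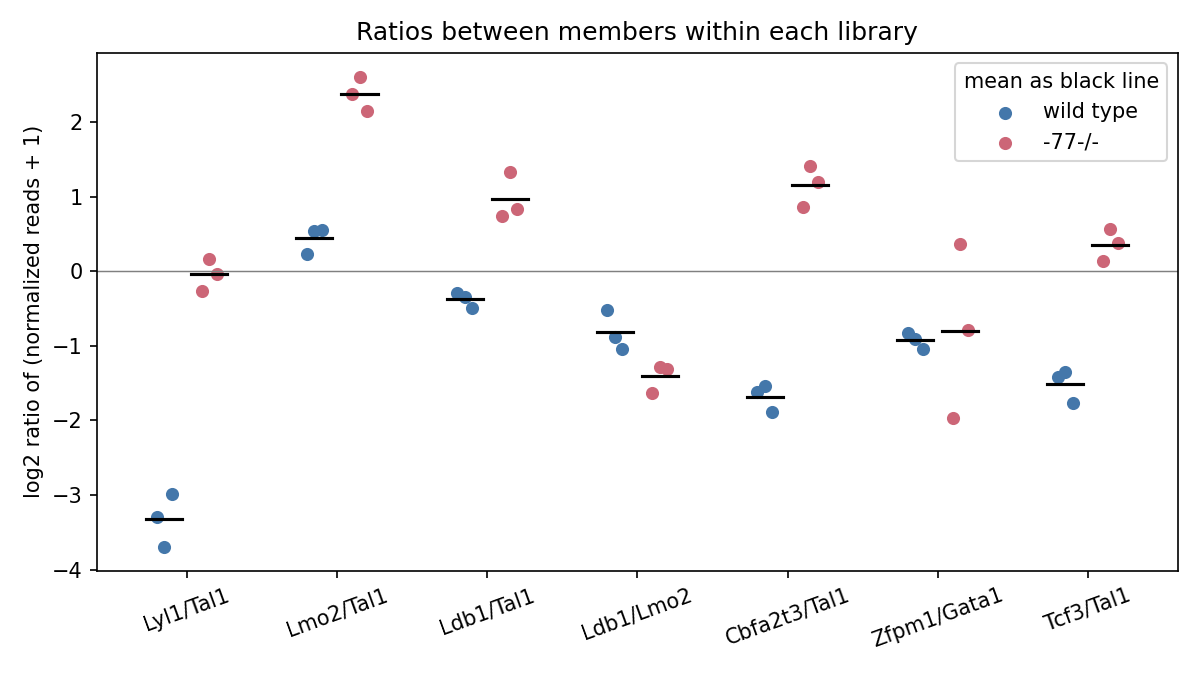
Log2 ratio of (normalized reads + 1) for 7 pairs of genes in each wild type (blue) and -77-/- (red) library, with the mean of each genotype as a black line. For 6 pairs the genotypes do not overlap; Zfpm1/Gata1 overlaps, with -77-/- values from -1.96 to 0.37.

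The other proteins of the complex and the paralogs of the members moved in both directions. Of 20 listed genes 17 had a row and were tested, of which 7 were lower, 4 were higher and 6 did not pass, with a median log2 fold change of -0.31. Among all tested genes 15.2% were lower and 16.9% higher. Ldb2, Lmo3 and Zfpm2 were not analysed here. Klf1, an erythroid activator that works beside the complex, and Gfi1b, a repressor of the same cells, fell by 5.49 and 4.43 on the log2 scale. Ssbp3, a single-stranded DNA-binding protein that binds and stabilizes Ldb1, fell with a size close to that of Ldb1, 2.97-fold (3046 ± 163 to 1026 ± 152, limma adjusted p = 3.91e-07). Its relatives Ssbp2 and Ssbp4 did not pass, at log2 fold changes of -0.08 (95% interval -0.40 to 0.23) and -0.31 (-0.95 to 0.33). Rlim, a ubiquitin ligase that acts on Ldb1 and other LIM cofactors, did not pass either (4916 ± 538 and 5672 ± 380).

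Among the E proteins that pair with Tal1 and Lyl1, Tcf3 fell 2.12-fold (1393 ± 194 to 656 ± 118, limma adjusted p = 2.16e-04) and Tcf12 fell by 0.48 on the log2 scale. Tcf4 rose 1.95-fold, from 963 ± 106 to 1881 ± 6.91 (limma adjusted p = 5.68e-05). Runx1, which binds many sites together with Tal1 in progenitors, rose by 1.54 on the log2 scale. Gata2, the GATA factor of the progenitor form of the complex, was at 92.3 ± 33.3 and 44.9 ± 25.7 and did not pass (limma adjusted p = 0.183).

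The paralogs of Lmo2, Cbfa2t3 and Tal1 rose, fell or did not pass. Lmo4, a relative of Lmo2, rose from 736 ± 139 to 1218 ± 160 (limma adjusted p = 0.0044), which per kilobase of exon was 605 ± 79.4 in -77-/- against 1422 ± 380 for Lmo2. Lmo1 was at 24.5 ± 33.3 and 96.4 ± 28.3, and Runx1t1 (ETO), a relative of Cbfa2t3, at 53.7 ± 10.9 and 8.16 ± 7.09. Those 2 calls were close to the threshold (limma adjusted p = 0.0405 and 0.0429), and both ended with a pseudocount of 0.1 and with edgeR (ranges 0.0025 to 0.186 and 0.0168 to 0.128 over their alternatives). That of Lmo1 also ended with DESeq2, in the authors' deposited table and without any single library other than wild type replicate 3, and that of Runx1t1 with a minimum mean of 50 and without any wild type library or -77-/- replicate 1. Cbfa2t2, the other relative of Cbfa2t3, did not pass (652 ± 173 and 776 ± 97.7, log2 fold change 0.28, 95% interval -0.16 to 0.72). Tal2, a further relative of Tal1, was at 8.50 ± 12.2 and 16.9 ± 11.5 and did not pass.

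Corepressors recruited by Zfpm1, Cbfa2t3 or Tal1 had log2 fold changes between -0.90 and 0.75. All 25 listed genes were tested: 8 were lower, 3 were higher and 14 did not pass, with a median of -0.13. The share called in either direction among all tested genes was 32.2%. The lower ones with the largest changes were Mbd2 and Mta3, subunits of the NuRD complex that Zfpm1 recruits, with -0.90 and -0.60, Rcor1, a partner of the histone demethylase Kdm1a, with -0.75, and Ctbp1, with -0.68. Chd4, the NuRD ATPase, was at 16673 ± 471 and 15822 ± 253 and did not pass. The CtBP corepressors, which bind Zfpm1, moved apart: Ctbp1 fell from 3706 ± 652 to 2296 ± 48.9 (limma adjusted p = 8.84e-04), and Ctbp2 rose from 754 ± 219 to 1234 ± 42.5 (limma adjusted p = 0.0077). Irf2bp2, a cofactor of Cbfa2t3, rose by 0.67. The call of Mta3 ended without wild type replicate 2 or -77-/- replicate 1 (range 0.0092 to 0.070 over its alternatives).

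Erythroid genes that the complex is known to bind or that mark its activity mostly fell. Of 25 listed, 24 were tested, 19 were lower and 5 did not pass, and none was higher (limma; also none with edgeR, DESeq2 or limma-voom, and none at an unadjusted p under 0.05), with a median log2 fold change of -4.64. Beside this, 15.2% of all tested genes were lower and 16.9% higher. By log2 fold change the largest falls were those of Rhd, a blood group protein, with -6.29, and Icam4, a surface adhesion protein, with -5.90. The claudin Cldn13 followed with -5.62 and Klf1 with -5.49. In -77-/- Icam4 was at 37.6, 0.972 and 1.71 and Cldn13 at 60.0, 2.92 and 11.1, so their places rest on libraries with few reads. By ratio of means Kel fell 32.1-fold, more than Cldn13 (28.8-fold) and Icam4 (26.6-fold). Rhd went from 1479 ± 97.3 to 29.5 ± 36.1 normalized reads, with the -77-/- libraries at 71.2, 8.75 and 8.54. The 5 genes that did not pass were Nfe2, E2f2 and Bcl2l1, at log2 fold changes of 0.39, -0.07 and 0.34, and the globins Hba-a1 and Hbb-b2, at -5.31 and -3.83. Hbb-b2 (limma adjusted p = 0.0528, from 9.83e-04 to 0.146 across alternatives) did pass in 6 of 16 alternatives, DESeq2, limma-voom and the authors' deposited table among them, and Hba-a1 (adjusted p = 0.167, from 0.0066 to 0.292) in 2, limma-voom and without -77-/- replicate 3. The globins are near-identical copies whose reads may be split between them, so their single values are uncertain.

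Progenitor genes, several of them bound by Tal1, Lyl1, Lmo2 and GATA2 in earlier cells, were mostly higher. All 16 listed were tested: 12 passed as higher, 2 as lower and 2 as neither, and the median was 1.53. The shares among all tested genes were 16.9% higher and 15.2% lower. Cd34 rose by 4.61, Prkch, a protein kinase C, by 2.85 and the ETS factor Fli1 by 2.60. Ly6a (Sca-1) had 3 reads over the wild type libraries and 252 over the -77-/- libraries, a ratio of 77.7 (exact 95% interval 26.3 to 379, counting error only). Kit, the stem cell factor receptor, fell 2.37-fold, from 4596 ± 318 to 1939 ± 202 (limma adjusted p = 1.04e-06), and Itga2b, a platelet integrin, from 195 ± 52.5 to 82.0 ± 16.4. The call of Itga2b ended without wild type replicate 2 or 3 or -77-/- replicate 1 or 3 (range 0.0158 to 0.104 over its alternatives), which leaves 1 lower gene. The 4 lists around the members share genes, so their counts are not separate. Klf1 and Gfi1b stand among the complex partners and the erythroid genes. Runx1, Gata2 and Lmo4 stand among the complex partners and the progenitor genes, and Nfe2 among the erythroid and the progenitor genes. The cell type lists share genes with them as well. These 4 lists, like the members, were chosen with earlier results of these data known, so their counts are descriptions.

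**Figure D4:**
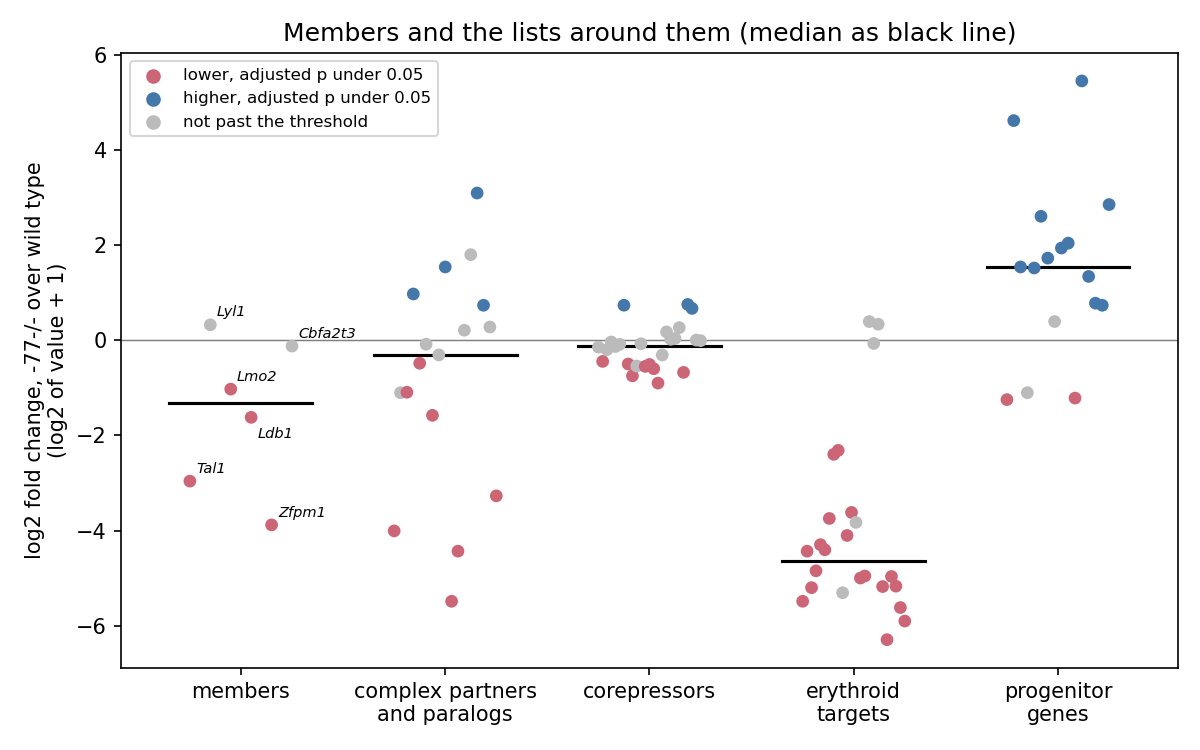
Log2 fold changes (-77-/- minus wild type, log2(value + 1)) of the 6 members and of the tested genes in 4 lists; each point is a gene, coloured by whether it was lower (red), higher (blue) or not past the threshold (grey), and black lines are medians. The median of the erythroid targets, -4.64, lies below that of the members, -1.32, and the median of the progenitor genes, 1.53, above it. Genes that stand in more than 1 list are drawn in each.

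For the 4 members that fell, the genes with the nearest profile over the 6 libraries were found among 9743 genes with a mean of at least 100, by the root mean square difference of log2(value + 1) after centring each gene on its own mean. Nearest to Tal1 were Asns, asparagine synthetase, at 0.13, Rab4a, an endosomal GTPase, at 0.14 and Ampd3, the AMP deaminase of red cells, at 0.15. Nearest to Zfpm1 were Mfsd2b, a sphingosine-1-phosphate exporter of red cells, at 0.16, Nckap1 at 0.20 and the septin Sept8 at 0.21. Nearest to Ldb1 were Pip4k2c, Casc4 and Cyb5r3, at 0.04, 0.07 and 0.08, and nearest to Lmo2 were Tbrg1, Snap23 and Gemin6, at 0.07, 0.08 and 0.08. No member was among the nearest genes of another: Tal1 was the nearest of the members to Zfpm1, at 0.60 and rank 66, and Ldb1 and Lmo2 were 0.35 apart. This distance follows in large part from the difference between the log2 fold changes of the genes compared. Members that fell by different extents could therefore hardly be near each other, and the ranks are no separate evidence.

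Genes beside the members on the chromosome, taken in order from the RefSeq annotation (GRCm38.p6), were called at a share near that of all genes. Of the 2 nearest annotated genes on each side of the 6 members, 12 had a row, of which 2 were lower and 1 was higher, beside 32.2% called in either direction among all tested genes. Nolc1, a nucleolar protein gene beside Ldb1 on chromosome 19, fell by 0.98 on the log2 scale and Pprc1, between them, by 0.54 (limma adjusted p = 2.14e-05 and 0.0090). Beside Tal1 on chromosome 4, Stil, a centriole protein gene, was at 953 ± 91.0 and 1209 ± 58.4 and did not pass (limma adjusted p = 0.0817). Pdzk1ip1, on the other side of Tal1, had 45 reads in wild type and none in -77-/- and did not pass with limma (adjusted p = 0.245, from 0.0299 to 0.372 across alternatives, having passed with DESeq2 and in the authors' deposited table), with 43.3 of its normalized reads in wild type replicate 3, 6.57 in replicate 1 and 0 in replicate 2. Lyl1 on chromosome 8 lay between Trmt1 and Nfix, and neither passed. Gm10612, the non-coding gene at Cbfa2t3 on the same chromosome, rose (ratio of reads 64.8, exact 95% interval 11.3 to 2594), but its call ended when wild type replicate 2 or any -77-/- library was left out (range 0.0075 to 0.0837 over its alternatives).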

How the data were processed

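The 3 wild type and 3 -77-/- libraries started from 10 ng of RNA each, were built with NuGEN's Ovation system and were sequenced as single 50 nt reads, per the labels. The submitters' processing notes name mm9, DESeq2, RSEM 1.2.31, STAR 2.5 and Bowtie; which did what, the annotation and the strand setting are not given in the sources used here. Deposited values are a normalized signal: gene counts that the authors divided by 1 size factor per library, as read from the values. After 8 of 19444 rows with displaced cells were left out, 100% of values in every library were whole multiples of a step (tolerance 0.01 of a read), so whole reads were recovered. If these came from RSEM they are rounded expected counts. The deposited log2 fold changes and adjusted p-values of the authors were used for comparison only, and stand among the alternatives whose ranges are given.

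The test was limma 3.58.1 (R 4.3.3, trend and robust) on log2(value + 1), which shrinks changes of low genes, for genes with a mean of at least 10 in the higher genotype, with Benjamini-Hochberg adjustment at 0.05. It was tested on simulated data. Alternatives were pseudocounts of 0.1 and 10, no filter or a mean of 50, and TMM and upper-quartile rescaling. Further ones were edgeR 4.0.16, DESeq2 1.42.0 and limma-voom on recovered reads, the authors' deposited values, and leaving out each library. Replicates were numbered in record order and pair nothing. Named genes were the members, Gata1, Gata2, paralogs, up to 4 called genes per direction in each list, nearest profiles and neighbours; Ssbp2, Ssbp3, Ssbp4, Rlim, Tcf3, Tcf12, Chd4, Nfe2, E2f2, Bcl2l1, Hba-a1, Hbb-b2, Cpa3 and Mpo were added after their values were seen. Members and lists were chosen with earlier results of these data known. Of 160 list entries 148 had a row, matched by symbol or by Ensembl ID. Promoter windows and gene order are from RefSeq, GRCm38.p6. Intervals from reads cover counting error only. Single values of some listed genes are not reported here.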

Additional observations from a re-analysis of the deposited data

How the results depend on the processing

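Over 16 alternatives the members kept their calls: 4 lower and 0 higher in each, with log2 fold changes of -3.17 to -2.70 for Tal1, -4.01 to -3.64 for Zfpm1, -1.72 to -1.54 for Ldb1 and -1.23 to -0.89 for Lmo2. Lyl1 stayed between 0.15 and 0.51 and never passed. Leaving out 1 library moved Cbfa2t3 between -0.20 and 0.0093, the last without -77-/- replicate 2, where its sign turned, and it passed in no alternative. The log2 ratio of Zfpm1 to Gata1 lay between -0.46 and 0.71, negative without -77-/- replicate 2, so it has no stable direction. The count of progenitor genes called lower lay between 1 and 2. The other counts and ratios kept their direction and stayed within 1.5 times the value given, with 3915 to 5324 genes called in all; edgeR on the recovered reads called 2353 genes lower and 2382 higher, against 2410 and 2681 with limma. No paired analysis was possible because the replicate numbers come from the order of the records and the labels pair no libraries. With 3 libraries a genotype, an exact test of a single value cannot go below 0.10.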

Other observations

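Genes of 2 further lineages that use GATA factors moved in different directions or did not pass. Of 11 megakaryocyte genes tested, 3 were lower, 2 were higher and 6 did not pass, beside 32.2% called in either direction among all tested genes. Pf4, a platelet chemokine, was at 100.2 ± 39.1 and 20.6 ± 14.4, and Gp5, a platelet glycoprotein, at 97.0 ± 48.9 and 12.6 ± 11.0 (limma adjusted p = 0.0258 and 0.0257). Both calls ended with -77-/- replicate 2 or wild type replicate 3 left out, that of Pf4 also without wild type replicate 2, and that of Gp5 also without wild type replicate 1, with edgeR and with a pseudocount of 0.1 (ranges 0.0090 to 0.0847 and 0.0074 to 0.0986 over their alternatives). Nbeal2, a gene needed for platelet granules, rose by 1.92 on the log2 scale.

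Of 6 mast cell and basophil genes with a row, 2 were lower and 4 did not pass, a share near the 32.2% called among all tested genes. Il1rl1, the receptor for interleukin-33, was at 335, 302 and 316 normalized reads in wild type and at 0, 23.3 and 19.6 in -77-/- (limma adjusted p = 0.0032; 0.0615 with a pseudocount of 0.1, the highest of a range from 5.43e-10). Cpa3, mast cell carboxypeptidase, was at 45.0, 5.99 and 33.0 in wild type and at 19.3, 40.8 and 27.3 in -77-/-, and did not pass. Hdc, histidine decarboxylase, went from 247 ± 32.5 to 112 ± 26.1, and its call ended without wild type replicate 1 or -77-/- replicate 3 (range 0.0094 to 0.0747).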
